A study of Mus musculus with 2 samples.

Results

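Somatic cells of foetal mouse ovaries and testes were compared at the embryonic stage E12.5 before any culture, in 4 XX and 4 XY libraries of the 39 somatic libraries in the series. The members were taken by name: the XX libraries are numbered 2, 3, 4 and 5, the XY libraries 2, 3, 5 and 6, and values below are given in that order. All embryos came from fathers of the 129svJT2 background carrying an *Oct4*-eGFP transgene and Swiss mothers, and all are labelled wild type, so that XX against XY is the only labelled difference between the groups. Each library was a pool of gonads, from which the mesonephros was removed, and the cells were sorted as GFP-negative, the transgene marking germ cells. The gate removes GFP-positive cells only, and the sorted soma is a mixture of supporting, interstitial, endothelial, blood and other cells rather than a single cell type. The only other libraries compared here came from XX and XY gonad-mesonephros organ cultures with the vehicle DMSO. They were held for 24 or 72 h, with 4 libraries of each sex and time. The remaining somatic libraries came from XY gonads cultured with an inhibitor of FGF receptors or of MEK1/2. They entered the shared fit, and so the filter, the spread and the calls, but are not compared.

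The gonad forms as a bipotential primordium. In the XY gonad, SOX9 drives supporting cells towards the Sertoli fate, and Sertoli cells enclose the germ cells in testis cords, secrete anti-Müllerian hormone and signal through desert hedgehog and FGF9 to the cells around them. In the XX gonad, WNT4, RSPO1, RUNX1 and FOXL2 promote the pre-granulosa fate of the same lineage. Foetal Leydig cells, which make steroids, arise in the interstitium of the testis.

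The libraries were 3′-end libraries with unique molecular identifiers (UMIs), and the values are UMI counts per gene. The XX libraries held between 1380707 and 2624157 counts and the XY libraries between 1886444 and 2401116. The level of a gene in each library is given as CPM, its count scaled to a common library total by TMM, the trimmed mean of M values, and differences are on the log2 scale as XX minus XY with their standard errors (SE), so that a negative value is higher in XY. A gene was called where edgeR's quasi-likelihood test gave a Benjamini-Hochberg adjusted p, the false discovery rate (FDR), below 0.05 and the fold change was at least 1.5. Sex-linked transcripts matched the label in 8 of 8 libraries and are otherwise left out, and every count below is of genes on autosomes. Replicates were separate pools as far as the library names tell, so p-values measure the spread between pools. On the first principal component of the autosomal genes, with 56.7% of the variance, the 4 XX libraries lay between 34.6 and 43.9 and the 4 XY libraries between -39.8 and -38.2. The second component, with 9.99%, set the libraries numbered 2 and 3 apart from those numbered 4 to 6 in both sexes.

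**Figure D1:**
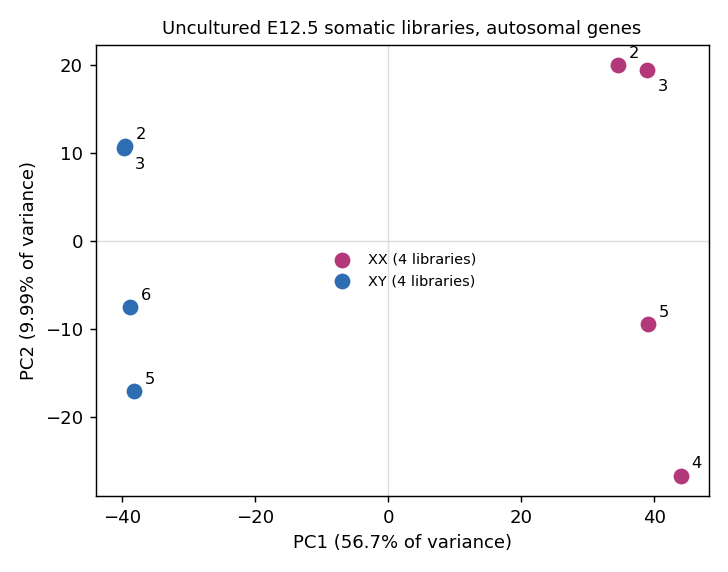
Principal components of the 8 uncultured libraries over autosomal genes (log2 CPM), PC1 with 56.7% and PC2 with 9.99% of the variance, each point a library labelled by its number. XX and XY libraries fall at opposite ends of PC1, and libraries 2 and 3 of both sexes lie above 0 on PC2 while libraries 4 to 6 lie below.

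Of 14543 autosomal genes tested, 2514 (17.3%) were called. Of these, 1136 (7.81% of the genes tested) were higher in XX and 1378 (9.48%) in XY, and for 3290 genes (22.6%) the 4 XX and 4 XY values did not overlap. These shares are the background for each list below. Both directions were alike in size: 298 genes were at least 4-fold higher in XX and 299 in XY, and 62 and 58 were at least 16-fold higher. The median size of the called differences was 1.28 for genes higher in XX and 1.17 for genes higher in XY. On every autosome genes were called in both directions, from 13.2% of the genes tested on chromosome 17 to 20.8% on chromosome 3. Protein-coding genes gave 1009 calls higher in XX and 1287 higher in XY among 12260 tested. Long non-coding RNAs gave 89 calls higher in XX and 33 higher in XY among 582 tested.

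Of 7 tested transcription factors and other regulators linked to the Sertoli fate, 5 were higher in XY, with *Gadd45g* going the other way. *Sox9*, which starts and maintains Sertoli differentiation (GRCm39 chr11:112673009-112678586, plus strand), was at 133, 157, 54.7 and 69.5 CPM in XX and 657, 683, 688 and 640.1 CPM in XY. It was 6.33-fold higher in XY (log2 difference -2.66 ± 0.20, FDR = 3.08e-16), but no XX library was close to 0. In a mixed population, fewer cells of a type and less RNA per cell cannot be told apart, and this holds for every level given here. *Sox10*, a close relative of *Sox9*, was at 1.28, 0, 0 and 0.751 CPM in XX against 20.2, 37.5, 30.9 and 26.8 in XY, 45.6-fold higher. *Sox8*, the third member of this SOX subgroup, rose from 2.47 ± 1.52 CPM in XX (mean ± SD, n = 4) to 24.6 ± 7.67 in XY. *Dmrt1*, which keeps Sertoli cells from turning into granulosa cells later in life, was 4.32-fold higher in XY (7.97 ± 2.27 against 36.0 ± 7.66 CPM) and *Sox13* 2.21-fold higher. *Gadd45g*, which acts upstream of *Sry* in the XY gonad, was instead higher in XX, at 289, 254, 411 and 344 CPM against 154, 134, 90.4 and 108 CPM (log2 difference 1.41 ± 0.14, FDR = 6.41e-12). *Nr0b2*, a nuclear receptor without a DNA-binding domain, was not called (7.53 ± 3.53 against 10.1 ± 4.4 CPM).

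Of 24 Sertoli products, 23 were higher in XY and none in XX, with no overlap between the sexes for 23 of them. Their median difference was -4.02, and their summed level was 564 to 760.2 CPM in the XX libraries against 3380 to 4053 in the XY libraries. *Dhh*, *Fgf9* and *Gdnf*, which encode signals to neighbouring cells, and the enzyme gene *Cyp26b1* were among the 23. *Dhh*, the hedgehog ligand of the testis, was at 15.8, 4.90, 1.54 and 4.88 CPM in XX and 219, 214, 159 and 191 CPM in XY, 26.6-fold higher (FDR = 2.65e-19); it shares its strand and part of its span with *Rhebl1*. *Fgf9*, the growth factor that keeps *Sox9* on, was 7.0-fold higher in XY, at 9.41, 8.90, 3.08 and 5.63 CPM in XX and 56.0, 54.2, 44.2 and 45.2 CPM in XY. *Gdnf*, later a niche factor of spermatogonial stem cells, was nearly at 0 in XX (2.14, 0.445, 0 and 0 CPM) and at 42.5, 44.4, 53.3 and 48.3 CPM in XY. *Cyp26b1*, which degrades retinoic acid and so keeps it from male germ cells, was 13.9-fold higher in XY (7.27, 9.35, 6.94 and 7.51 CPM in XX, 108, 108, 105 and 117 CPM in XY).

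*Amh*, anti-Müllerian hormone, had few counts in the XY libraries, and the reason was not tested. Its counts summed to 68 over the XY libraries and 2 over the XX libraries, a ratio of 36.1 (exact 95% counting interval 9.62 to 304), with 6.22, 13.8, 5.71 and 8.78 CPM in the XY libraries. *Cst9*, a cystatin of early Sertoli cells, was in contrast abundant, at 21.8, 18.3, 16.2 and 15.8 CPM in XX and 561, 659, 449 and 421 CPM in XY. *Ptgds*, which makes prostaglandin D2, stood at 23.1, 13.4, 10.8 and 10.1 CPM in XX and 403, 385, 299 and 338 CPM in XY, and the XX library numbered 5 held the lowest level. *Aard*, known from the testis by its sex-specific expression, rose from 25.4 ± 6.23 CPM in XX to 319 ± 21.7 in XY, and *Serpine2*, a protease inhibitor, was 12.7-fold higher. *Hsd17b3*, which turns androstenedione into testosterone and in the foetal testis is made by Sertoli cells, was at 4.28, 0, 0 and 0.375 CPM in XX and 53.9, 50.1, 41.4 and 36.4 CPM in XY.

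The XX library numbered 2 stood apart for these products, with a summed level of 760.2 CPM against 564 to 581 in the other XX libraries. In the fit without it, the difference of *Dhh* was -5.53 in place of -4.73, that of *Col9a3* -5.44 in place of -4.83, that of *Tesc* -7.08 in place of -6.36 and that of *Sox10* -6.27 in place of -5.51. The moves were larger for *Gdnf* (-7.79 in place of -5.97) and *Hsd17b3* (-7.73 in place of -5.09), whose XX counts lay mostly in this library, so that the values without it rest on counts near 0. All 24 products were called higher in XY without this library, *Inha* included (difference -0.70).

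Some products were shared by both sexes. *Clu*, the secreted chaperone clusterin, was at 199.9 ± 21.3 CPM in XX and 394 ± 33.7 in XY, 1.97-fold higher in XY. *Inhbb*, the activin beta B subunit, differed by -0.86 ± 0.19 (FDR = 0.000295). *Inha*, the inhibin alpha subunit, was the only product not called, at 173, 96.6, 121 and 107 CPM in XX and 208, 155, 168 and 172 CPM in XY (log2 difference -0.50 ± 0.15, FDR = 0.0115), below the 1.5-fold limit.

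On the XX side, all 7 pre-granulosa regulators that could be tested were higher in XX and none overlapped between the sexes, with a median difference of 4.11. *Foxl2*, the forkhead factor that defines granulosa cells (GRCm39 chr9:98837341-98840596, plus strand), was at 48.3, 52.5, 87.9 and 104 CPM in XX and 1.55, 0.576, 0.951 and 1.32 CPM in XY, 62.2-fold higher (log2 difference 5.96 ± 0.37, FDR = 3.75e-19). *Irx3*, an Iroquois homeobox factor of pre-granulosa cells, reached the highest level of the 7, at 507, 524, 604 and 565 CPM in XX against 7.26, 6.91, 8.56 and 3.95 CPM in XY, 82.6-fold higher. Its neighbour *Irx5* was lower in level but also rose 23.7-fold (36.6 ± 1.30 against 1.53 ± 0.572 CPM). *Runx1*, which helps maintain the pre-granulosa identity alongside *Foxl2*, was at 86.4, 77.0, 106 and 104 CPM in XX and 16.6, 13.3, 10.5 and 15.4 CPM in XY. *Msx1*, a homeobox target of BMP signalling, was 17.3-fold higher in XX, and *Cdkn1b*, the cell cycle inhibitor p27, 3.44-fold higher. The members *Irx1*, *Irx2* and *Msx2* had too few counts to be tested, and *Irx1* had none in any of the 8 libraries.

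The ligands and products of pre-granulosa cells followed, with 9 of 10 tested members higher in XX, none higher in XY and a median difference of 2.89. *Wnt4*, the main ovarian WNT ligand, was at 389.9, 423, 426 and 486 CPM in XX and 61.2, 51.9, 59.5 and 44.3 CPM in XY, 7.97-fold higher (FDR = 1.01e-24). *Rspo1*, which amplifies WNT signals at the receptor, was 6.94-fold higher (176, 197, 187 and 218 CPM in XX, 31.1, 27.7, 26.2 and 27.2 CPM in XY). *Fst*, which encodes follistatin, the binding protein that blocks activin (GRCm39 chr13:114588731-114595521, minus strand), had the largest difference of the listed genes with counts in both sexes, at 205, 256, 298 and 304 CPM in XX and 1.04, 2.30, 1.43 and 1.32 CPM in XY, 172-fold higher (log2 difference 7.42 ± 0.28, FDR = 5.86e-28). *Bmp2* was 9.15-fold higher in XX (106 ± 14.7 against 11.8 ± 3.43 CPM). *Kitl*, the ligand that germ cells need through their receptor KIT, was high in both sexes and 2.97-fold higher in XX (507 ± 81.3 against 170.0 ± 12.9 CPM). *Sprr2d*, a small proline-rich protein with close copies beside it, among which reads can be split, was at 285, 273, 257 and 216 CPM in XX and 1.55, 2.30, 2.85 and 4.83 CPM in XY. *Fam13c* was the member not called.

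**Figure D2:**
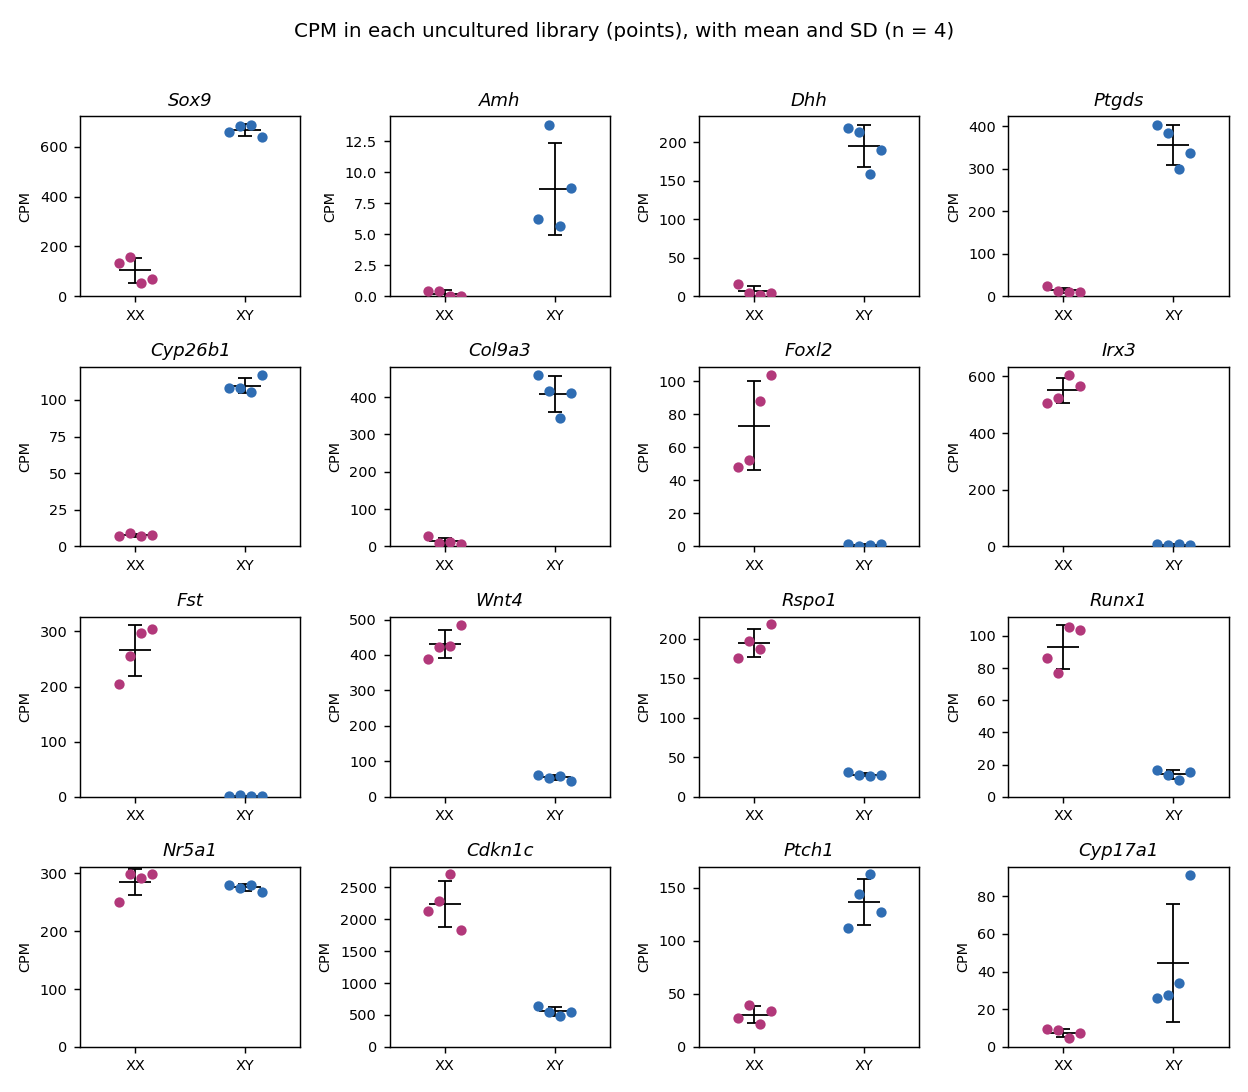
CPM (linear axes from 0) of 16 genes in the 4 XX and 4 XY uncultured libraries, each point a library, with the mean and SD (n = 4). Sertoli genes such as *Sox9* and *Dhh* separate upwards in XY, pre-granulosa genes such as *Foxl2* and *Fst* upwards in XX, and *Nr5a1* overlaps between the sexes.

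The factors of the early gonad, which are needed before the sexes part, were split. Of 13 tested members, 4 were higher in XX, 3 in XY and 6 were not called. *Nr5a1*, which encodes steroidogenic factor 1 and is a defining gene of the somatic gonad, was at 251, 299.6, 292 and 298 CPM in XX and 279, 274, 280.2 and 269 CPM in XY, with overlapping groups and a difference of 0.05 ± 0.10 (FDR = 0.778). *Emx2*, a homeobox gene without which gonads do not form, had the largest difference, at 294, 278, 301 and 327 CPM in XX and 61.2, 75.5, 79.0 and 66.3 CPM in XY, 4.26-fold higher in XX. *Gata6* (2.27-fold), *Lhx9* (2.18-fold) and *Wt1* (1.84-fold) were also higher in XX; *Wt1*, which the XY gonad too needs for Sertoli differentiation, stood at 627, 723, 767 and 662 CPM in XX and 398, 359.6, 365 and 384 CPM in XY. The genes higher in XY were *Six4* and the insulin receptor family genes *Insr* (1.81-fold) and *Igf1r*, and this count of 3 fell to 1 without the XX library numbered 2 and to 0 without the XY library numbered 5.

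Of 32 tested genes of the WNT pathway, 13 were higher in XX, 4 in XY and 15 were not called, with a median difference of -0.095. Besides *Wnt4* and *Rspo1*, the genes higher in XX included targets of the pathway and the receptors of R-spondins, while the frizzled receptors and beta-catenin were not called. *Axin2*, a negative regulator that WNT signalling turns on, was at 82.8 to 101 CPM in XX and 14.5 to 31.6 CPM in XY, 4.55-fold higher. *Lef1*, a transcription factor that works with beta-catenin, was 3.99-fold higher in XX (160.5 ± 7.35 against 40.3 ± 7.45 CPM). *Sp5*, another direct WNT target, was at 52.6, 65.0, 63.2 and 46.9 CPM in XX and 2.07, 1.73, 0.951 and 2.63 CPM in XY, 29.6-fold higher. *Nkd1* and *Rnf43*, other inhibitors that the pathway induces, were 3.02-fold and 5.83-fold higher in XX. The inhibitors *Znrf3* and *Apcdd1* were not called, and *Notum* had too few counts to be tested. Of the receptors of R-spondins, *Lgr5* was 2.08-fold higher in XX, and *Lgr4* and *Lgr6* were called in the same direction. *Lgr4* lost its call without the XX library numbered 4 or the XY library numbered 2 or 3 (0.48 to 0.56), and *Lgr6* (3.38 to 6.23 CPM in XX, 1.73 to 2.59 CPM in XY) lost it with only the libraries numbered 2 and 3 or only those numbered 4 to 6. *Lgr5* was not called with only the libraries numbered 2 and 3 (0.88). Among 4 genes higher in XY, *Dkk1*, a secreted WNT inhibitor, was at 2.99, 3.12, 0 and 1.5 CPM in XX and 21.3, 23.6, 27.6 and 26.8 CPM in XY, 11.6-fold higher, and *Nkd2* was 4.02-fold higher. The core component *Ctnnb1*, which encodes beta-catenin, was not called (311 ± 46.3 against 387 ± 38.6 CPM, difference -0.31 ± 0.11).

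In the hedgehog pathway, 5 of 12 tested genes were higher in XY, 2 in XX and 5 were not called. Besides the ligand *Dhh*, the genes higher in XY were the receptor *Ptch1*, the decoy *Hhip* and the transcription factors *Gli1* and *Gli2*, of which *Ptch1*, *Hhip* and *Gli1* are known to be induced by hedgehog signalling. *Ptch1* was at 26.9, 39.6, 21.6 and 33.8 CPM in XX and 112, 145, 163 and 127 CPM in XY, 4.37-fold higher (FDR = 2.2e-14). *Hhip* was 13.9-fold higher (3.86 ± 2.10 against 58.1 ± 12.3 CPM) and *Gli1* 8.68-fold higher (7.13 ± 3.23 against 57.5 ± 15.4 CPM). The co-receptors *Boc* (1.91-fold) and *Cdon* were higher in XX, and *Cdon* lost its call when any library was left out other than the XX libraries numbered 2 and 3 and the XY library numbered 5. *Smo*, the transducer, was among those not called. The other ligands of the family, *Ihh* and *Shh*, had too few counts to be tested.

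Among FGF ligands, their receptors and the feedback genes of ERK signalling, 11 of 20 tested members were higher in XY and 1 in XX. The feedback genes called were *Dusp6*, *Spry1*, *Spry4*, *Spred1*, *Spred2*, *Etv1*, *Etv4* and *Etv5*, while *Dusp4* and *Spry2* were not called. *Etv5*, a transcription factor induced by FGF, was at 25.2, 13.4, 15.4 and 14.6 CPM in XX and 63.8, 69.1, 80.9 and 65.4 CPM in XY, 4.03-fold higher. *Spry4*, which dampens receptor signalling, was 4.04-fold and *Dusp6*, a phosphatase of ERK, 2.45-fold higher (38.9 ± 7.72 against 97.3 ± 14 CPM). Of the ligands, *Fgf9* and *Fgf18* (3.35-fold) were higher in XY, both also counted among the Sertoli products. The ligands *Fgf1*, *Fgf2*, *Fgf7* and *Fgf10* were not called. *Fgfr1* was called higher in XY, and the only member higher in XX was *Fgfr2*, at 48.3, 48.5, 34.7 and 60.8 CPM in XX and 7.77, 7.49, 10.9 and 7.02 CPM in XY, whose annotated span holds many other genes on the same strand.

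Genes of BMP and activin signalling gave 5 calls in each direction among 29 tested. Follistatin and *Bmp2* led the XX side, together with the receptor *Bmpr1b*, the follistatin-like *Fstl3* (2.52-fold) and *Amhr2*, the receptor of anti-Müllerian hormone (407 ± 11.3 against 194 ± 16.9 CPM, 2.10-fold). *Inhba*, the activin beta A subunit, was higher in XY, at 5.56, 1.78, 0 and 10.1 CPM in XX and 26.4, 33.4, 37.1 and 53.6 CPM in XY, 7.43-fold (FDR = 6.8e-12). *Acvr1* and *Tgfb1* were also called higher in XY, the latter not without the XX library numbered 2 or 5 or the XY library numbered 2 or 6 (differences between -1.29 and -0.90). Without the XX library numbered 5, which held the highest XX level of *Inhba*, its difference was -3.69. The BMP targets *Id1*, *Id2*, *Id3* and *Id4* were not called.

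Retinoic acid is made by aldehyde dehydrogenases and degraded by CYP26 enzymes. The aldehyde dehydrogenases differed in direction: *Aldh1a1* was at 80.8, 90.8, 84.8 and 106 CPM in XX and 364, 359, 386 and 397 CPM in XY, 4.14-fold higher in XY, while *Aldh1a2* and *Aldh1a3* (2.61-fold) were higher in XX. Genes linked to the retinoid supply and response in cells were higher in XX: *Stra6*, a retinol importer, by 3.11-fold, *Dhrs3*, a retinal reductase, by 2.77-fold (221 ± 25.3 against 79.1 ± 5.75 CPM), and the binding protein *Crabp2* was also called. With *Cyp26b1* and *Rbp4*, the 16 tested genes gave 5 calls higher in XX and 3 in XY; without the XX library numbered 2, *Aldh1a2* and *Crabp2* were not called and 3 remained in XX. The receptors *Rara*, *Rarb*, *Rarg*, *Rxra* and *Rxrb* were not called, and *Cyp26a1* and *Cyp26c1* had no count in any of the 8 libraries.

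Foetal Leydig cell genes were low but ahead in XY, with 9 of 14 tested genes higher in XY and none in XX. Per library they summed to 555 to 607 CPM in XX against 853 to 1159 CPM in XY. *Cyp17a1*, which commits steroids to the androgen route, was at 9.41, 8.90, 4.62 and 7.51 CPM in XX and 25.9, 27.7, 33.8 and 91.3 CPM in XY, 5.73-fold higher (log2 difference -2.52 ± 0.34, FDR = 3.94e-08). The XY library numbered 6 stood far above the others, and without it the difference was -1.86. *Hsd3b1* was 2.38-fold higher (35.4 ± 10.4 against 82.2 ± 25.4 CPM) and its near relative *Hsd3b6* was called too; reads from such related genes can be hard to assign. *Star*, which brings cholesterol into mitochondria, was 1.77-fold higher. With only the libraries numbered 2 and 3, *Star* (-0.35), *Hsd3b1* (-0.74) and *Hsd3b6* (-1.18) were not called, and *Hsd3b6* was not called by DESeq2 either. *Cyp11a1*, which makes the first cut in cholesterol, was not called and overlapped, at 30.4, 26.7, 32.4 and 16.9 CPM in XX and 29.0, 27.7, 30.9 and 41.7 CPM in XY. *Insl3*, a defining hormone of foetal Leydig cells, had too few counts to be tested: 0 in the XX libraries and 1, 1, 2 and 3 counts in the XY libraries. Cholesterol synthesis hardly differed, with 1 gene (*Sc5d*) higher in XX and 1 (*Lss*) higher in XY of 19.

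Of 16 tested genes of interstitial progenitors, 8 were higher in XY and 1 in XX. *Tcf21*, a factor of mesenchymal progenitors, was at 34.2, 41.0, 49.3 and 34.9 CPM in XX and 111, 136, 179 and 158 CPM in XY, 3.74-fold higher. *Pdgfra* (2.24-fold), *Nes* (2.01-fold) and *Vcam1* (5.17-fold) followed. *Nr2f2*, a nuclear receptor of interstitial cells, was not called (422 ± 50.9 against 606 ± 40.5 CPM). *Igf1* was the member higher in XX, at 130.4, 131, 166 and 139 CPM in XX and 50.3, 52.4, 50.9 and 44.8 CPM in XY, and *Igfbp2*, a binding protein of the same hormone, was 4.22-fold higher in XX.

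The matrix of the testis cord was higher in XY in 13 of 22 tested genes, with 1 higher in XX. The largest differences were in collagens of cartilage and of basement membranes. *Col9a3* was at 27.8, 9.79, 12.3 and 7.13 CPM in XX and 459, 417, 343 and 410.5 CPM in XY, 28.4-fold higher. *Col2a1*, the main cartilage collagen and a target of SOX9 there, was at 0.428, 0.445, 2.31 and 1.13 CPM in XX and 50.3, 50.1, 54.7 and 56.2 CPM in XY. *Col4a4*, which lies head to head with *Col4a3*, was 10.3-fold higher and *Col4a3* was called too, whereas the ubiquitous *Col4a1* and *Col4a2* were 2.12-fold and 2.00-fold higher. *Col18a1* was at 179 ± 18.3 CPM in XX and 733 ± 23.1 in XY. Of the laminin chains, *Lama4* was 3.09-fold higher in XY, and *Lama1*, *Lama5*, *Lamb1*, *Lamb2* and *Lamc1* were not called. *Itga6*, a laminin receptor subunit, was higher in XX (453 ± 68.7 against 206 ± 19.1 CPM, 2.20-fold). Among 18 genes of the stromal matrix, 9 were higher in XY and 1 in XX. *Col14a1* was 7.66-fold and *Vcan* 4.78-fold higher in XY, and the exception, *Col12a1*, was at 149, 185, 189 and 199 CPM in XX and 12.4, 7.49, 14.7 and 13.6 CPM in XY, 14.7-fold higher in XX.

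Of 27 tested cell cycle genes, 12 were higher in XY, 3 were higher in XX and 12 were not called. Those higher in XX were the inhibitors *Cdkn1a* (p21), *Cdkn1b* (p27) and *Cdkn1c* (p57), while the inhibitor *Cdkn2c* was not called. *Cdkn1c* was among the most abundant genes called, at 2134, 2289, 2708 and 1833 CPM in XX and 647, 542, 481 and 550.1 CPM in XY, 4.03-fold higher (FDR = 3.88e-18). *Cdkn1a*, a target of p53, was at 196, 195, 208 and 213 CPM in XX and 27.0, 25.9, 16.7 and 14.9 CPM in XY, 9.72-fold higher. *Mki67*, a marker of cycling cells, was 2.17-fold higher in XY (201, 130.4, 121 and 149 CPM in XX, 297, 335, 384 and 299 CPM in XY) and *Top2a* 1.73-fold higher. The mitotic genes *Ccnb1* (1.75-fold), *Cdk1* (2.02-fold), *Bub1* (2.17-fold) and *Plk1* (1.93-fold) were higher in XY by similar folds. Of the replication licensing genes *Mcm2* to *Mcm7*, only *Mcm3* was called, and the D cyclins *Ccnd1*, *Ccnd2* and *Ccnd3* were not called.

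**Figure D3:**
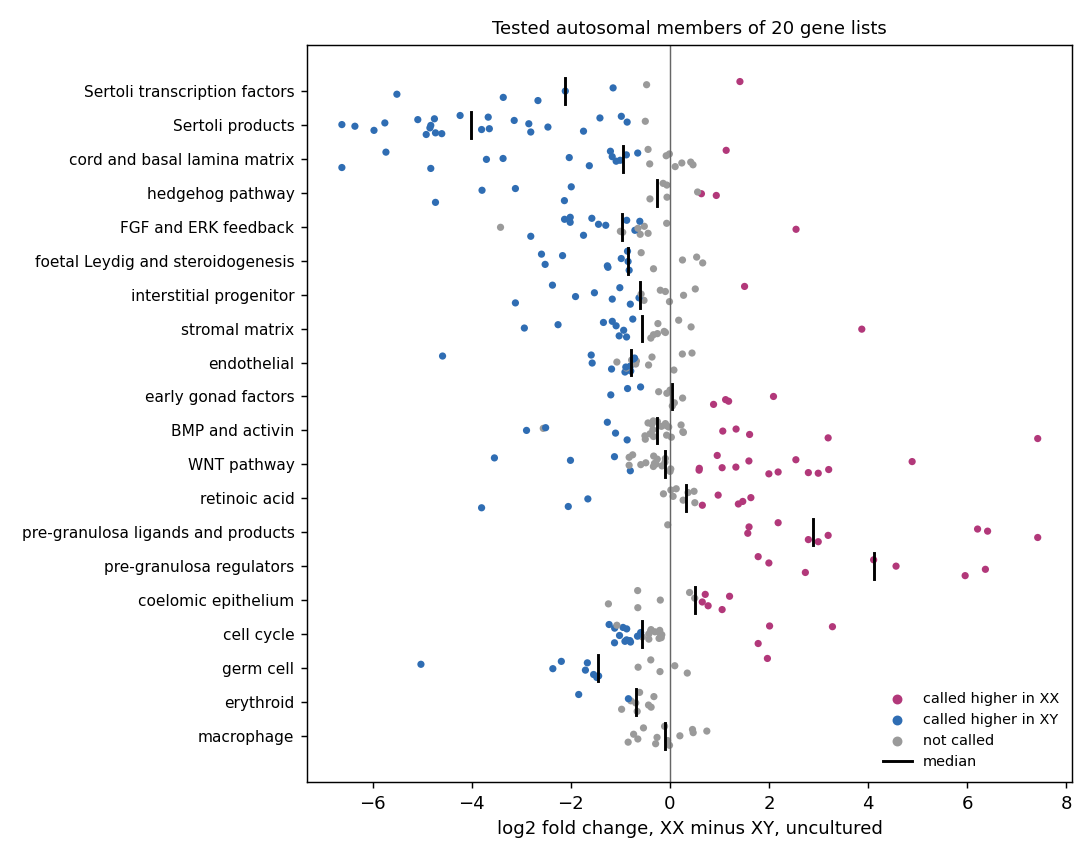
Log2 fold change (XX minus XY) of each tested autosomal member of 20 lists, each point a gene, coloured where called, with the median as a bar. Sertoli lists lie to the left and pre-granulosa lists to the right, and most lists in between hold genes of both directions; genes with 0 counts in one sex have fitted values that depend on the prior count.

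Among called genes whose groups did not overlap, list members included, the largest differences were close to on or off. Of the 12 largest in each direction with a mean of at least 5 CPM, 6 genes had no count in any XY library. *Defb7*, a beta-defensin, had 142 counts over the XX libraries and 0 over the XY libraries, at least 44.6-fold higher against a floor of 3 counts over the group, and stood at 19.2, 18.3, 18.5 and 12 CPM in XX. The receptor gene *Gpr55* had 139 counts (at least 43.6-fold higher), *Insyn2b* 136 (at least 42.7-fold), the repressor *Scrt2* 107 (at least 33.6-fold) and *Irx3os*, a transcript antisense to *Irx3*, 100 (at least 31.4-fold). *Tph2*, the serotonin-making hydroxylase of neurons, had 91 (at least 28.6-fold). Listed here too were *Sprr2a1*, which shares its span with *Sprr2a2*, and *Lypd6b*, with 208 and 108 counts in XX against 2 and 1 in XY. On the XY side, 3 genes had no count in XX: *Siglece*, a lectin of the Siglec family, and *Ankrd63*, each with 115 counts over the XY libraries (at least 40.7-fold higher), and the connexin gene *Gjb2* with 96 (at least 34.0-fold). *Col9a1* had 221 counts in XY and 2 in XX, a ratio of 117 (exact 95% counting interval 32.1 to 975), and *Bricd5* 367 and 2, a ratio of 195 (exact 95% counting interval 53.6 to 1616). *Tesc*, the calcium-binding protein tescalcin known from the early testis, was at 3.42, 0.890, 1.54 and 0.751 CPM in XX and 149, 149, 129 and 128 CPM in XY, 82.0-fold higher. The others were *Gm45765* in XX (197 counts against 1) and, in XY, *Hes5*, a Notch target, *Islr2*, which shares its strand and span with *Islr*, and the orexin receptor *Hcrtr1*, with 90, 144 and 140 counts against 1, 2 and 2. *Gdnf*, *Mall* and *Padi2* completed the XY side and *Fst*, *Sprr2d* and *Irx3* the XX side.

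The 250 bases before the start are shown for 5 of these genes, which are among the sharpest contrasts between the sexes. The sequences are RefSeq's for the build GRCm38.p6, 5′ to 3′ on the strand of the gene, with matches to 7 short motifs in capitals. The motifs, searched on both strands, were AACAAT for SOX, ACAATGT for DMRT, AAGGTCA for NR5A1, AGATAA for GATA factors, GTAAACA for FOX, CTTTGAA for TCF/LEF and CAGCTG for the E-box, and the SOX and DMRT motifs share the letters ACAAT.
*Defb7* (higher in XX), chr8:19494847-19495096, plus strand: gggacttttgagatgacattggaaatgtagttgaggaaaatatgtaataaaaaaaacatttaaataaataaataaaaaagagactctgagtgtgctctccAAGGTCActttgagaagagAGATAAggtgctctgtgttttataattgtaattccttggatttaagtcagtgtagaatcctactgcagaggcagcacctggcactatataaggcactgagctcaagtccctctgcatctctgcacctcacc
*Irx3os* (higher in XX), chr8:91803086-91803335, plus strand: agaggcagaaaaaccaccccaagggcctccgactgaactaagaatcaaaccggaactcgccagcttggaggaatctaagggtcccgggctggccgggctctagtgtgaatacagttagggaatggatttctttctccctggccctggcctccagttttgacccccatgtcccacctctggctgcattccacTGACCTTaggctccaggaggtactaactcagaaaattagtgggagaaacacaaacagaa
*Sprr2d* (higher in XX), chr3:92338890-92339139, plus strand: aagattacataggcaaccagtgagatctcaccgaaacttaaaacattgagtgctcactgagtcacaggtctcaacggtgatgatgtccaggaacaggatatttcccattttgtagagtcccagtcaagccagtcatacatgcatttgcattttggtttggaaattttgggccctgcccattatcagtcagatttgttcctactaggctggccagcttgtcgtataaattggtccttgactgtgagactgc
*Col9a1* (higher in XY), chr1:24177360-24177609, plus strand: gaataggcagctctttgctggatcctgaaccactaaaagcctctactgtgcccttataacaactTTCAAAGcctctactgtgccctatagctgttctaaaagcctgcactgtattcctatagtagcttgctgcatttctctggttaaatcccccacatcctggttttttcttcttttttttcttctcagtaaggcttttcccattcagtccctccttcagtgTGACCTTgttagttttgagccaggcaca
*Tesc* (higher in XY), chr5:118027493-118027742, plus strand: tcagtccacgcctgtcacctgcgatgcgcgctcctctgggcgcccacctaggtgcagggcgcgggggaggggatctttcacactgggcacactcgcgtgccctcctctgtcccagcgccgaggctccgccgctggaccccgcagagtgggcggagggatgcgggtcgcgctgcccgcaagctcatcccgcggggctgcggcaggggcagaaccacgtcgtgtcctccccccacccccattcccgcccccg
The window of *Defb7* held the NR5A1 motif 150 bases and the GATA motif 131 bases before the start. *Irx3os* held the NR5A1 motif on the other strand, 59 bases before the start, and *Col9a1* held it on the other strand at 28 bases, with the TCF/LEF motif at 186 bases. The windows of *Sprr2d* and *Tesc* held none of the 7. *Tesc* had 26 CpG dinucleotides and 73.2% G or C, against 0 and 38.4% for *Defb7* and 0 and 43.6% for *Col9a1*. Among 25748 autosomal promoter windows of this length, 4.05% held the NR5A1 motif, 10.2% the GATA motif, 4.61% the TCF/LEF motif, 9.45% the SOX motif, 2.63% the DMRT motif, 3.13% the FOX motif and 12.8% the E-box. A match is a description of the letters and not a bound site.

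The most abundant genes called included further members of these groups. Those higher in XX were *Cdkn1c*, the imprinted RNA *H19* (1914, 2167, 2609 and 1985 CPM in XX, 1133, 1146, 1169 and 1138 CPM in XY), the imprinted zinc finger gene *Peg3*, *Ifitm1* and *Kctd14*. *Ifitm1*, an interferon-inducible membrane protein, was at 1080.0, 1264, 1271 and 936 CPM in XX and 295, 295, 229 and 227 CPM in XY, 4.35-fold higher. Higher in XY were *Sparc*, a matrix protein of basement membranes (777 ± 18.8 against 1786 ± 113 CPM), the endoplasmic reticulum chaperones *Hsp90b1* and *Hspa5*, the histone gene *H2ac24* and the globin gene *Hbb-bt*. *Hsp90b1* was 1.79-fold and *Hspa5* 1.59-fold higher.

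Marker lists of further cell types in the sorted cells were compared in the same way. Of 14 tested germ cell genes, 8 were higher in XY, 1 in XX and 5 were not called, and their summed level was 148 to 184 CPM in the XX libraries against 279.6 to 444 in the XY libraries. *Dazl* was at 18.8, 17.4, 23.1 and 19.9 CPM in XX and 78.3, 68.0, 60.9 and 49.2 CPM in XY, and *Dppa3* at 46.2, 28.5, 37.8 and 30.0 and 132, 107, 69.5 and 77.7 CPM. *Pou5f1*, whose regulatory sequence drives the transgene of the sort, had 1 to 6 counts per library in XX against 3 to 8 in XY. *Stra8*, the gene of meiotic entry, had 3 counts in XX and 104 in XY, a ratio of 36.8 (exact 95% counting interval 12.3 to 181). In the sorted GFP-positive germ cells of the same stage, the study instead lists *Stra8* among the genes higher in XX. With only the libraries numbered 4 to 6, 4 germ cell genes were called higher in XY. The part of germ cell RNA in the differences above was not tested.

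Endothelial genes were higher in XY in 10 of 20 tested members and in XX in none, with summed levels of 221 to 333 CPM in XX and 399 to 466 in XY. *Pecam1* was at 11.4 ± 2.84 CPM in XX and 21.2 ± 1.6 in XY, and *Flt1*, a VEGF receptor, was 2.26-fold higher in XY. Among the arterial genes, *Gja5*, a connexin, had 3 counts in XX and 78 in XY, a ratio of 27.6 (exact 95% counting interval 9.11 to 137). *Dll4*, a Notch ligand, was also called, while *Hey1* and *Sox17* were not called. *Dll4* lost its call without the XX library numbered 2, 3 or 4 or the XY library numbered 2, 3 or 6 (-1.58 to -1.33). *Kdr*, the VEGF receptor, was not called. The count of endothelial calls rested on single libraries: it was 6 without the XX library numbered 2 and 4 without that numbered 3, and 5 and 1 with only the libraries numbered 2 and 3 or only those numbered 4 to 6. With only those numbered 4 to 6, the difference of *Flt1* was -0.68 and that of *Pecam1* -0.66, neither called. Among ligands that act on vessels, *Cxcl12* (3.49-fold) and *Pdgfa* (2.14-fold) were higher in XY and *Pdgfc* (2.06-fold) in XX, and *Vegfa* was not called.

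Globins summed with other erythroid genes to 8925 to 15815 CPM in XX and 15171 to 19474 in XY, and the XX library numbered 4 overlapped the XY libraries. The erythroid transcription factor *Klf1* was called higher in XY, and of the 10 members tested the other call was *Hbb-bt*, which has a near-identical copy. Of 13 macrophage genes none was called by edgeR, 0 had an unadjusted p below 0.05 and 0 was called by DESeq2, with summed levels of 85.6 to 116 CPM in XX and 107 to 122 in XY. Contractile and perivascular genes summed to 547 to 585 CPM in XX against 329.7 to 362 CPM in XY, without overlap, but the 11 members gave calls in both directions: 3 were higher in XX, 2 in XY and 6 were not called. *Myl9*, a myosin light chain, held most of this sum in XX, at 392, 392, 391 and 345 CPM in XX and 114, 122, 90.9 and 115 CPM in XY, 3.45-fold higher in XX. *Myh11*, a smooth muscle myosin, was 3.41-fold and *Rgs5*, a gene of pericytes, 2.61-fold higher in XX, whereas *Acta2*, smooth muscle actin, was 2.60-fold and *Cspg4*, a proteoglycan of pericytes, 2.18-fold higher in XY. Coelomic epithelium genes were higher in XX in 5 of 11 members, among them *Krt19* (2.30-fold) and *Upk3b* (1.71-fold), and in 1 with only the libraries numbered 4 to 6. Of 9 duct genes, *Pax8*, *Gata3* and *Ret* were higher in XX, the defining gene *Wnt9b* had no count in any of the 8 libraries, and *Pax2* had 1 or 2 counts in each XX library and 0 in XY. Stress-induced genes, read as a sign of tissue handling, were called in 2 of 14 members, *Jun* (1.57-fold) and *Atf3*, both higher in XX; it was 1 without the XX library numbered 2 and 4 without that numbered 4. The stress-induced genes summed to 3558, 3527, 2598 and 3146 CPM in XX and 2717, 2959, 2168 and 2143 CPM in XY. These sums overlapped over the 8 libraries. Within the libraries numbered 2 and 3, and within those numbered 4 to 6, each XX sum lay above each XY sum. The part of these cell types and of handling in the differences above was not tested.

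**Figure D4:**
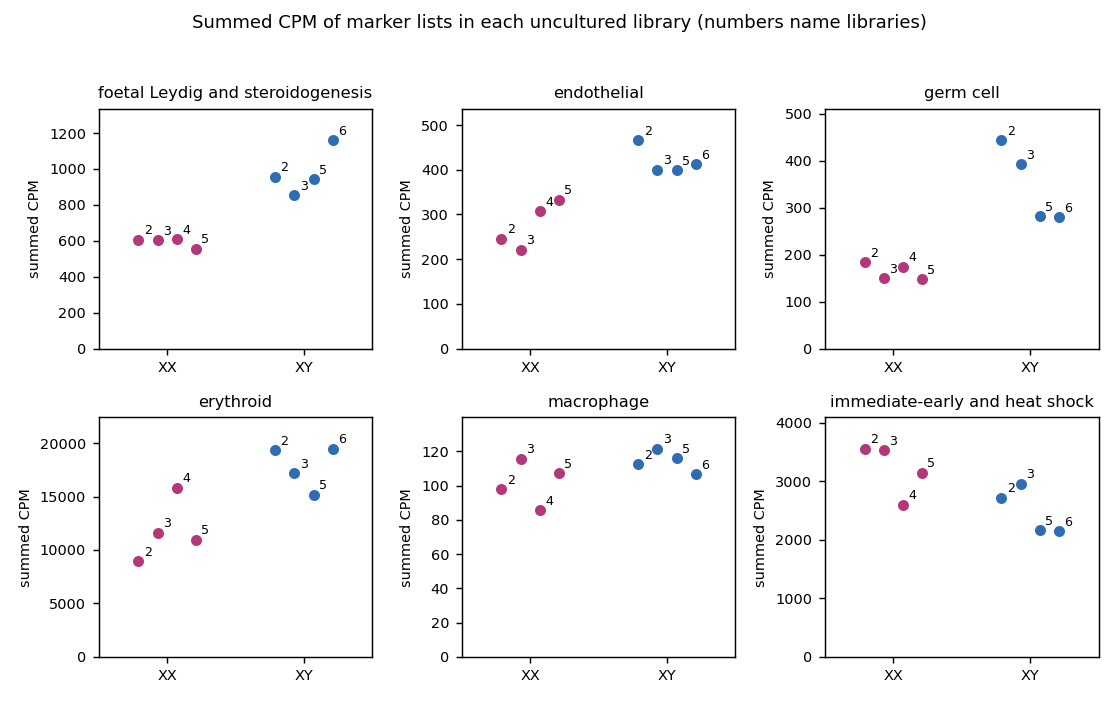
Summed CPM (linear axes from 0) of 6 marker lists in each of the 8 uncultured libraries, points labelled by library number. The Leydig, endothelial and germ cell sums of the XY libraries all lie above those of the XX libraries, while erythroid, macrophage and stress-gene sums overlap between the sexes.

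The cultured libraries are other libraries than the uncultured ones, but the same fit gave both sets of calls, with a shared filter and spread. The cultured libraries were used to see which calls returned. After 24 h in DMSO, 677 genes were called higher in XX as in uncultured cells, 59.6% of the uncultured and 52.7% of the cultured calls, and 724 were called higher in XY (52.5% and 47.1%). After 72 h the numbers were 591 (52.0% and 43.2%) and 698 (50.7% and 44.7%). At the same thresholds, 19.4% of the genes tested were called at 24 h (8.83% higher in XX and 10.6% in XY) and 20.1% at 72 h (9.4% and 10.7%). At both times, 507 genes were again higher in XX and 520 in XY. Among them *Fst* had differences of 4.67 at 24 h and 3.05 at 72 h, *Foxl2* of 5.15 and 3.67, *Sox9* of -2.17 and -1.80 and *Dhh* of -3.64 and -2.92. A smaller number was called in the opposite direction: 6 of the genes higher in uncultured XX and 33 of those higher in XY at 24 h, and 25 and 53 at 72 h. An abundant example, picked after its values were seen, was *Chchd10*, a mitochondrial protein, at 167, 135, 128 and 121 CPM in XX and 584, 571, 511 and 536 CPM in XY before culture (difference -2.00 ± 0.15), and with differences of 0.68 at 24 h and 0.96 at 72 h. The uncultured and 24 h libraries belong to the same set of libraries and the 72 h libraries to another, and set and time cannot be told apart at 72 h.

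**Figure D5:**
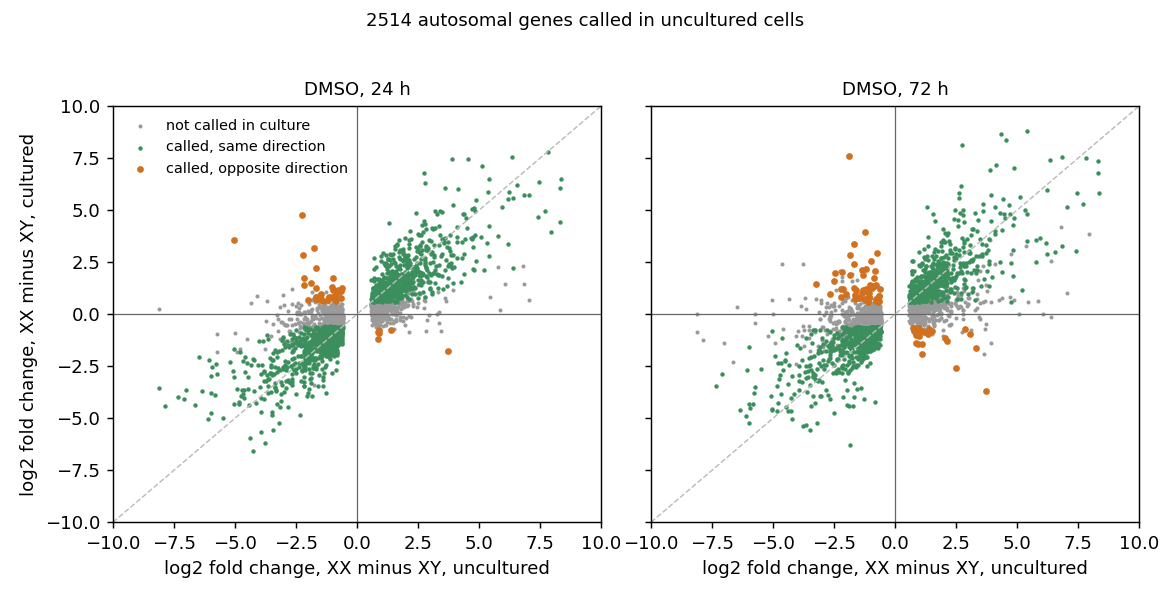
Log2 fold change (XX minus XY) in uncultured cells (x axis) against 24 h (left) and 72 h (right) DMSO cultures (y axis) for the 2514 autosomal genes called before culture, each point a gene. Most points called in culture lie in the quadrants of equal sign, with 6 and 33 genes of opposite call at 24 h and 25 and 53 at 72 h.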

How the data were processed

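Gonads were pooled per library, dissociated with trypsin and sorted by flow cytometry, and 3′-end libraries primed on the poly(A) tail were sequenced. Per the study's methods, the authors mapped reads with Rsubread and counted UMIs per gene with scPipe on GRCm39, and they deposited raw counts; limma and edgeR are named in the submitters' processing notes. The study's code has the strand setting on for every library set when reads are assigned to exons. PCR copies are collapsed by the UMIs, and intervals and floors cover counting error only. 1 column not named in the labels was not used.

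All 39 libraries in 10 groups were fitted with 1 mean per group (R 4.3.3, edgeR 4.0.16: filterByExpr, TMM, glmQLFit, glmQLFTest), since they share an estimate of the spread, and 15390 genes were tested, among them 14543 on autosomes; FDRs are over all genes tested. Of 42422 identifiers, 40391 (95.2%) matched GENCODE M39, which gave names and positions. The members and lists were chosen with earlier results of these data known, and the lists of imprinted, chaperone and Notch genes, the long non-coding RNAs and the split by library number after the values were seen. Genes were named by a rule: list members, the 12 largest differences in each direction among called genes whose groups did not overlap and whose mean level reached 5 CPM, and the 5 most abundant called genes in each direction. A floor of 3 counts over the group replaced a count of 0 in a fold, and ratios with 1 to 3 counts carry exact 95% intervals. Replicates of a group differed by more than sampling noise (chi-square per degree of freedom 1.92 to 3.91 over 12 pairs). Alternatives were RLE scaling, total counts, other filters, DESeq2 1.42.0, glmTreat, voom with treat (limma 3.58.1), fewer libraries and a replicate block. Principal components used log2 CPM with a pseudocount of 2 CPM. The fit was tested on simulated data.

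Promoter sequences came from RefSeq (GRCm38.p6), 250 bases before the start, and matched 68.0% of the tested symbols, 71.4% of those called higher in XX and 71.8% of those called higher in XY. Since fewer than 80% matched, a comparison of motif shares among called genes was void. *Amh*, *Sox9*, *Fst*, *Aard*, *Bmp2* and *Irx5* have no entry. Some items are not reported here.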

Additional observations from a re-analysis of the deposited data

Results flagged for a closer look

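Of 384 groups of 4 values checked (the named genes, the list sums and the total counts, in XX and in XY), 19 held a library far from the other 3 by Dixon's criterion; chance alone is expected to give about 1 in 20. The XX library numbered 2 was high for *Hsd17b3* (4.28 CPM, others 0 to 0.375) and for the sum of Sertoli products (760.2 CPM, others 564 to 581), and low for *Nr5a1* (251 CPM, others 292 to 299.6) and *Lgr5* (62.4 CPM, others 92.6 to 97.9). The XX library numbered 3 was low for *Pecam1* (7.12 CPM, others 12.4 to 13.1) and held the only count of *Hes5* (0.445 CPM, others 0). The XX library numbered 4 was low for *Igfbp2* (171 CPM, others 205 to 209.7), held no count of *Stra8* (0 CPM, others 0.375 to 0.445) and was high for the sum of neural and adrenal genes (28.5 CPM, others 15.6 to 17.6). The XX library numbered 5 was low for *Defb7* (12 CPM, others 18.3 to 19.2), for *Myl9* (345 CPM, others 391 to 392) and for the Leydig sum (555 CPM, others 603 to 607), and high for the stromal matrix sum (2218 CPM, others 1901 to 1950.2).

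Among the XY libraries, that numbered 6 was high for *Cyp17a1* (91.3 CPM, others 25.9 to 33.8) and for the sum of contractile genes (362 CPM, others 329.7 to 333). The XY library numbered 2 was low for *Siglece* (7.26 CPM, others 15.8 to 17.3) and high for *Dnajb11* (118 CPM, others 98.5 to 101). That numbered 3 was low for *Fstl3* (2.88 CPM, others 6.66 to 7.26), and that numbered 5 was high for *Igf1r* (215 CPM, others 173 to 178).

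For 9 genes picked because their calls changed in culture, the difference between XX and XY at 24 or 72 h is set against the uncultured difference (edgeR contrast). Since the genes were chosen for this change, the values are a description and no test of it. The XX minus XY difference became more positive for *Stra8* by 8.59 ± 0.88 at 24 h and 5.73 ± 0.97 at 72 h, *Smc1b* by 3.90 ± 0.39 and 4.10 ± 0.47, and *Sycp1* by 5.04 ± 0.60 and 4.21 ± 0.75, and all 3 were higher in XY before culture and had positive differences after it. *Chchd10* moved by 2.68 ± 0.21 and 2.96 ± 0.21, and *Mro*, a gene of Sertoli cells that shares its strand and span with *Gm58427*, by 2.53 ± 0.33 and 2.67 ± 0.33, to differences of 0.07 and 0.21. *Wnt4* moved the other way, by -1.47 ± 0.17 and -2.49 ± 0.18, and *Igf1* by -1.29 ± 0.18 and -2.34 ± 0.18. *Cyp11a1* moved by -3.18 ± 0.45 and -2.17 ± 0.44, having been -0.33 ± 0.33 before culture, and *Hsd3b1* by -1.20 ± 0.29 at 24 h and 1.96 ± 0.28 at 72 h. The 72 h libraries come from another set of libraries than the uncultured ones, and set and time cannot be told apart there.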

How the results depend on the processing

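The counts of autosomal genes called in uncultured cells were 1136 higher in XX and 1378 in XY, and stayed within 1.5 times of these under every alternative scaling, filter, DESeq2 and choice of libraries run; they fell where the fold limit was built into the test, to 632 and 709 with edgeR's glmTreat and 453 and 442 with voom, quality weights and treat. The same tests gave 698 and 830, and 543 and 567, at 24 h and 693 and 742, and 538 and 497, at 72 h, in place of 1284 and 1537 and of 1367 and 1563. Leaving out 1 library at a time gave 1083 to 1163 and 1233 to 1332 calls before culture, 1221 to 1297 and 1332 to 1495 at 24 h and 1267 to 1358 and 1361 to 1529 at 72 h. A fit of the 8 uncultured libraries alone called 1025 genes higher in XX and 1152 in XY. With only the libraries numbered 2 and 3, 876 and 926 were called, and 825 and 1041 with only those numbered 4 to 6. Scaling shifted the median difference over all genes by at most 0.05.

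The library numbers do not mark shared litters or days in the labels, and the deviations of same-numbered XX and XY libraries correlated at 0.07, 0.05 and 0.15 for the numbers 2, 3 and 5. With the replicate number as a block, 1060 and 1229 genes were called before culture and 954 and 1134 at 24 h, while at 72 h the block gave 883 and 996. *Cdon*, *Lgr4*, *Lgr6*, *Tgfb1* and *Dll4* lost their calls under this block. The XX libraries numbered 2 and 3 did not correlate best with their own number in XY.

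Of 160 named genes, 47 lost their call under at least 1 alternative, 28 with glmTreat and 46 with voom and treat. *Igf1r*, at the fold limit, lost it under every other scaling and filter and with DESeq2 (-0.58 to -0.54 for both scalings). With only the libraries numbered 2 and 3, 13 lost it, among them *Lgr5* (0.88), *Aldh1a3* (1.30), *Hsd3b1* (-0.74) and *Star* (-0.35). With only those numbered 4 to 6, 19 lost it, among them *Inhbb* (-0.75), *Insr* (-0.63), *Flt1* (-0.68), *Pdgfc* (0.60), *Klf1* (-1.07), *Crabp2* (0.44), *Aldh1a2* (0.40) and *Atf3* (0.89), and *Nr2f2* (-0.66) and *Hes1* (0.82) gained one. The only one to change sign was *Cyp11a1*, which was not called (0.035 with only the libraries numbered 2 and 3). Over the fits without 1 library, *Igf1r* was between -0.66 and -0.49, *Meg3* between -0.63 and -0.55, *Lgr4* between 0.48 and 0.75, *Cdon* between 0.43 and 0.81, *Aldh1a2* between 0.56 and 0.81, *Dnajb9* between 0.52 and 0.87 and *Fgfr1* between -0.81 and -0.54, which cross the fold limit. *Six4* (-1.40 to -1.02), *Tgfb1* (-1.57 to -0.90), *Dll4* (-2.10 to -1.33), *Insr* (-0.98 to -0.66), *Crabp2* (0.84 to 1.16), *Atf3* (0.86 to 1.40), *Pecam1* (-0.97 to -0.71) and *Hsd3b6* (-1.41 to -1.10) lost the FDR threshold in at least 1 of these fits; the cause was not tested. With 50 bases after the start added to the promoter windows, the shares holding the motifs were 10.7% for SOX, 3.03% for DMRT, 4.63% for NR5A1, 11.4% for GATA, 3.6% for FOX, 5.22% for TCF/LEF and 16.2% for the E-box, the longer window holding more letters. Genes under about 1 CPM in both sexes rest on few counts, and small differences in them were not detectable at this depth.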

Other observations

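Groups of genes chosen after the values were seen, from what stood out among the abundant or strongly changed genes, are described here without a test of the group. Of 20 imprinted genes, which are read from one parental copy, 6 were higher in XX, 2 in XY and 12 were not called, with a median difference of 0.43. Per library they summed to 8109 to 9965 CPM in XX against 4931 to 5357 CPM in XY, and *Cdkn1c* and *H19* held much of it. *Peg3* was at 1430.1, 1698, 1893 and 1574 CPM in XX and 953, 902, 1098 and 1101 CPM in XY, and *Peg10* was 2.30-fold, *Zim1* 2.12-fold and *Usp29* 1.82-fold higher in XX. *Plagl1*, a zinc finger gene of the same network, was 1.85-fold higher in XY, and the RNA *Meg3* lost its call without single libraries, with the XX library numbered 2 or 3 or the XY library numbered 2 or 5 left out. *Mest* was not called (798 ± 28.5 against 726 ± 32.5 CPM).

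Of 18 chaperones and folding enzymes of the endoplasmic reticulum, 10 were higher in XY, 1 in XX and 7 were not called, and the summed level was 4190.0 to 4708 CPM in XX and 6589 to 7758 in XY. *Calr*, calreticulin, was at 453, 428, 377 and 483 CPM in XX and 775, 829.8, 839 and 768 CPM in XY, 1.84-fold higher, and *Dnajb11* was 1.96-fold higher. *Dnajb9*, a co-chaperone of *Hspa5*, was the one higher in XX, a call lost without the XY library numbered 5, and without the XX library numbered 5 the calls higher in XY fell to 6. *Xbp1*, a factor that turns on such genes under secretory load, was not called (149.6 ± 11.1 against 187 ± 28.6 CPM).

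Among 19 tested genes of Notch signalling, 8 were higher in XY, none in XX and 11 were not called; without the XX library numbered 3, or the XY library numbered 2 or 6, 5 were higher in XY. *Hes5*, a target of Notch, had 1 count in XX and 90 in XY, a ratio of 95.6 (exact 95% counting interval 16.7 to 3818). The target *Heyl* was 2.84-fold and the ligand *Jag1* 3.89-fold higher in XY (4.45 ± 1.22 against 16.5 ± 3.73 CPM). *Hes1*, the most abundant of these genes, was not called and rose past the fold limit in XX when the XX library numbered 2 or 3 was left out and with only the libraries numbered 4 to 6.

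Several long non-coding RNAs stood at high levels. *E330013P04Rik* was at 265, 297, 338 and 235 CPM in XX and 26.4, 45.5, 30.9 and 26.8 CPM in XY, 8.79-fold higher in XX. *Emx2os*, on the strand opposite *Emx2*, was at 91.9, 86.4, 95.6 and 92.4 CPM in XX and 14, 13.8, 15.7 and 14.9 CPM in XY; the study's code counts reads by strand. *Dnm3os*, the host of a pair of microRNAs, was 3.25-fold higher in XY (12.7 ± 1.35 against 40.6 ± 4.89 CPM).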
